A study of Mus musculus with 1183 samples.

Results

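The genes described are 5 subunits and partners of the phagocyte NADPH oxidase, Cybb, Cyba, Ncf1, Ncf4 and Rac2. They were taken by symbol from a count table of 18072 genes, and all 5 were found. The table gives read counts of 1183 single sorted cells, labelled immune and taken from distal lung at postnatal day 7 under hyperoxia. Hyperoxia, an excess of oxygen, is used in newborn mice to injure the growing lung. All cells carry the same treatment label, and the labels give neither the oxygen level nor the strain. 1 female mouse gave 598 cells and 1 male mouse gave 585, so the animal is the replicate (n = 2) and the spread between animals cannot be told apart from a difference between the sexes. The submitters' labels put the cells in 16 subtypes, and values below are given by those labels. No group without hyperoxia was used, so nothing below is an effect of the treatment.

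The oxidase is a membrane enzyme of phagocytes that passes electrons from NADPH to oxygen and so makes superoxide, which helps to kill ingested microbes. Cybb encodes its catalytic subunit NOX2, which is held in the membrane together with the partner subunit encoded by Cyba. Ncf1 and Ncf4 encode cytosolic subunits that join the membrane pair on activation, together with the small GTPase Rac2 or its relative Rac1. Inherited loss of these subunits causes chronic granulomatous disease, in which phagocytes fail to clear certain bacteria and fungi. Rac1 was not among the 5 genes and is given below only as the counterpart of Rac2.

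Depth ran from 16753 to 7560179 reads per cell with a median of 1100966, and the reads of each subtype and animal were summed to 6024429 to 235566546 reads. Levels are CPM, the usual scaling of a gene's reads to a fixed library total, computed on the summed libraries. The markers listed for each subtype reached 50 CPM in both animals, except Cpa3 and Ms4a2 in mast cell II and Ly6c2 in Mac II; 1 marker of DC II, Cd301b, was not among the symbols used. Mac I was 1 male cell, and 15 subtypes had at least 5 cells in each animal. 10 cells came from gates other than CD45, the surface protein that marks blood-derived cells. Part of the female cells were sequenced in a run that held no male cells, and values for the run that both animals share are given only where named.

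Promoter sequence is shown for Cybb, Ncf1 and Cyba, the 3 of the 5 genes with an entry in the promoter table, beside their levels below. Each run below is the 250 bases before the transcription start, 5′ to 3′ on the gene's own strand, from RefSeq on GRCm38.p6; all 3 genes lie on the minus strand. Capitals mark each match, on either strand, to GAAANNGAAA, a core of the elements bound by interferon regulatory factors. No 2 matches overlapped.
Cybb: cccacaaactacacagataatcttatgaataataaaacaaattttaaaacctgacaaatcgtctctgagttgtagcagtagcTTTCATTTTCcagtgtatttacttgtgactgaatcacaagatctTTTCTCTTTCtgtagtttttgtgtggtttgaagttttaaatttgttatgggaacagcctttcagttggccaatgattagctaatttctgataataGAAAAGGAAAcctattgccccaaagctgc
Ncf1: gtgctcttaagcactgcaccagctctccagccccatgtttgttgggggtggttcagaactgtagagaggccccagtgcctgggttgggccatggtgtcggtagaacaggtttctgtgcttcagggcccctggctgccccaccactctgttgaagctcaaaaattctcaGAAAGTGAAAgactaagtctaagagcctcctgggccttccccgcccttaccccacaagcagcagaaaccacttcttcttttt
Cyba: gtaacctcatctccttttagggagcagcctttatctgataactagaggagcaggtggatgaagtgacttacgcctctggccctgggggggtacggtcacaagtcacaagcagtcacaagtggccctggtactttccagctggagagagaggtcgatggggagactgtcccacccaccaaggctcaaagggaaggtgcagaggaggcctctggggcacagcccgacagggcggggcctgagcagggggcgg
The Cybb window is chrX:9469325-9469574 and held 3 matches, GAAAAGGAAA at bases -29 to -20 and, on the other strand, TTTCATTTTC at -168 to -159 and TTTCTCTTTC at -124 to -115. The Ncf1 window is chr5:134229626-134229875 and held 1 match, GAAAGTGAAA at bases -82 to -73. The Cyba window is chr8:122432941-122433190 and held none. The motif occurred in 2.98% of 32851 windows of the same length. GAGGAA, a core bound by PU.1, was in none of the 3 windows, against 23.3% of all windows. The windows were 34% (Cybb), 54.4% (Ncf1) and 60% (Cyba) G or C, with a median of 52.4% over all windows. These matches describe letters only, and no binding was measured. Ncf4 and Rac2, both on chromosome 15, had no entry in the promoter table.

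Cybb, the catalytic subunit, was the most restricted of the 5 genes. It was highest in Mac V, at 2024 CPM in the female and 2070 in the male. As a whole this label held the monocyte genes Plac8, Ifitm6 and Ly6c2, and also Ace. At 50 CPM, 24 female and 23 male Mac V cells had Ly6c2 without Ace, and 33 and 14 had Ace without Ly6c2. Mac III, which held the alveolar macrophage genes Chil3, Ear1, Car4 and Siglecf, followed at 1321 and 1272 CPM, and Mac II at 1297 and 974. All 3 stood above the next subtypes in both animals, and Mac III and Mac II overlapped. Neutrophils had 713 CPM in the female and 784 in the male, Mac IV, which held C1qa, C1qb and C1qc, had 739 and 593, and DC II had 677 and 582. These 3 overlapped between animals and were not ordered. B cells, which carry the antigen receptor genes Cd79a and Cd79b, had 340.98 and 459 CPM, below all of these. The B cells of the female had 450.6 CPM in the shared run and 118.7 in the other run.

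In the remaining subtypes Cybb was low or absent. T cells had 102.4 CPM in the female and 8.87 in the male, and NK cells had 26.8 and 0. Mast cells had 1.04 CPM in the female and no read in the male. Most of this came from the run that held no male cells: the female T cells had 295.8 CPM there and no Cybb read in the shared run. Her NK cells had 40.9 and 1.36 CPM, and her mast cells 2.49 and 0.055, in the same order. DC I, which held Xcr1 and Clec9a, and DC III, which held Ccr7 and Fscn1, had no Cybb read in either animal. Basophils had 2 reads, mast cell II 1 read and IL cells 1 read in all.

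The few lymphocytes and mast cells with Cybb were single cells, not a low level spread over the class. A cell was counted as holding a gene with at least 2 of 100000 reads drawn at random from it, or 20 CPM, and by this rule 3 of 46 T cells held Cybb. The median depth of these 3 was 2536790 reads, against 1222130 in the other T cells. They held 3 to 4 of the 4 T cell markers, none of the 4 B cell markers and 0 to 2 of 16 phagocyte markers, and 2 of the 3 held all 5 oxidase genes. The 1 NK cell with Cybb held 1 phagocyte marker, 1 B cell marker and all 5 oxidase genes. It also had 99.4% of the Ncf1 reads of the female NK cells. None of the 10 other NK cells held a B cell marker. The 1 mast cell with Cybb held all 4 B cell markers and 2 phagocyte markers, and it was the only mast cell with all 5 oxidase genes and the only one with at least 2 B cell markers. Within the shared run no T, NK or mast cell held all 5 genes. For scale, markers of other subtypes were also found outside their own. Cma1 was held by 0.357% of 1119 cells other than mast cells and Cd79a by 1.08% of 1114 cells other than B cells. S100a8, a very abundant neutrophil message, was held by 25.9% of 1045 cells other than neutrophils. Its shares were 57.4% in Mac II, 49.9% in Mac III and 38.2% in Mac V. Of T cells, 2.17% held S100a8, 2.17% held Cd79a, none held Cma1 or the basophil marker Mcpt8, and 6.52% held Cybb. Of mast cells, none held S100a8, 1.69% held Cd79a, 5.08% held Mcpt8 and 1.69% held Cybb. Whether 2 cells shared a well or free RNA was taken up was not tested.

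**Figure D1:**
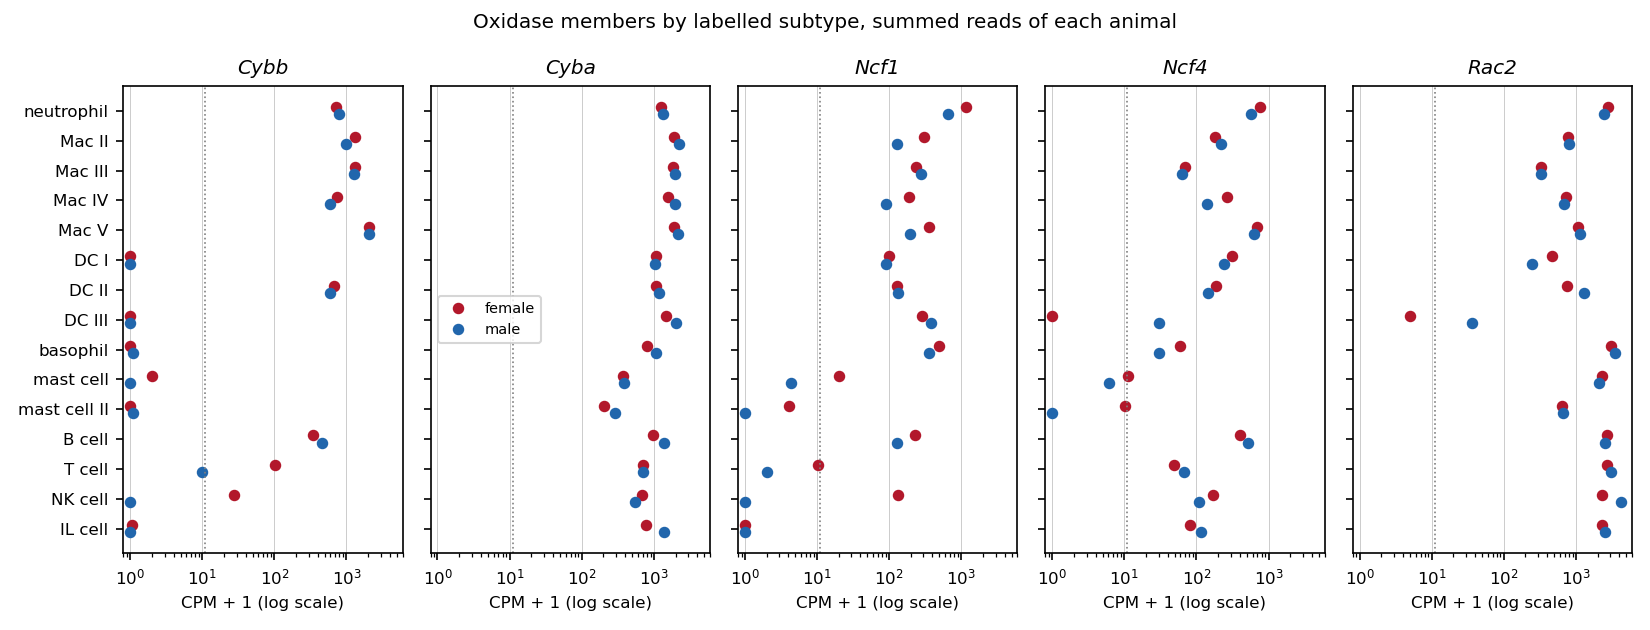
Level of each of the 5 oxidase genes (x axis, CPM + 1, log scale) in 15 labelled subtypes (y axis), with 1 point for the summed reads of the female and 1 for the male; the dotted line marks 10 CPM. Cyba lies right of the line in every subtype shown, whereas Cybb lies left of it in both animals of DC I, DC III, basophils, both mast cell labels and IL cells.

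Cyba, the membrane partner of Cybb, was present in every subtype. Mac II had 1923 CPM in the female and 2231 in the male, Mac V 1899 and 2153, Mac III 1824 and 1959, Mac IV 1587 and 1986 and DC III 1455 and 2053, and each overlapped the next. Neutrophils followed at 1263 and 1341 CPM, and B cells, DC II, DC I, IL cells and basophils overlapped in a chain from 1365 CPM down to 769. T cells had 711 and 717 CPM and NK cells 681 and 542. Mast cells, with 371.1 and 383.3 CPM, and mast cell II, with 200.7 and 285.3, stood lowest and apart from all others. The lowest library thus still had 200.7 CPM of Cyba, while that of Cybb had no read. DC I and DC III held Cyba in 97.5% and 100% of cells and Cybb in none, which for 40 DC I cells allows a share of up to 7.50%.

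Ncf1, the organising cytosolic subunit, was highest in neutrophils, at 1155 CPM in the female and 658 in the male, with no overlap with any other subtype. Basophils came next at 491 and 361.5 CPM and overlapped DC III at 282.1 and 385.2, and Mac V, Mac III, Mac II, B cells, Mac IV and DC II overlapped in a chain from 354.4 CPM down to 88.8. DC I had 99.4 and 90.2 CPM. Ncf1 was under 20 CPM in T cells (9.29 and 1.00), mast cells (19.5 and 3.30) and mast cell II (3.05 and 0), and IL cells had no read. Ncf1 shares 11.1% of its exon bases with Gtf2ird2 on the opposite strand, and the deposited counts are not stated to use strand, so reads of the pair may not have been told apart. Gtf2ird2 itself had 215.3 CPM in the neutrophils of the female and 176.2 in those of the male. In basophils it had 89.9 and 246.8 CPM and in DC III 29.7 and 125.2. It was not confined to these labels, with 23.4 and 28.3 CPM in Mac V and 36.9 and 1.81 in mast cell II.

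Ncf4, which binds a membrane lipid and extends oxidase activity on phagosomes, was highest in neutrophils (756 CPM in the female, 579 in the male) and Mac V (690 and 627), which overlapped. B cells followed alone at 404 and 523 CPM, and DC I had 307.3 and 244.1. Mac IV, Mac II, DC II and NK cells overlapped in turn, from 266.4 CPM down to 108.4. Mac III stood low among the macrophage labels at 67.5 and 62.7 CPM, next to T cells at 47.2 and 66.4. In basophils Ncf4 was 58.3 and 29.6 CPM, and it was under 11 CPM in both mast cell labels. DC III had 29.5 CPM in the male, all from 1 of 11 cells, and no Ncf4 read in the female.

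Rac2, the blood-cell member of the Rac GTPases, followed another order from the 4 other genes. It was highest in NK cells (2312 CPM in the female, 4268 in the male), basophils (3031 and 3455), T cells (2718 and 3051), neutrophils (2783 and 2446), B cells (2658 and 2535), IL cells (2287 and 2546) and mast cells (2307 and 2065). Neighbours in this run overlapped, and all stood above the macrophage and dendritic labels. Mac V had 1054 and 1151 CPM, DC II 752 and 1275, Mac II 765 and 803, Mac IV 724 and 676, and mast cell II 636 and 672. Mac III had 323.03 and 322.2 CPM and DC III 3.99 and 34.9. In DC III, 97.5% of the Rac2 reads of the female and all of those of the male came from 1 cell each. DC III thus had almost no Rac2 in either animal while its Cyba and Ncf1 were in the upper part of their ranges.

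Rac1 can stand in for Rac2 in the oxidase, and the balance of the pair was compared per kilobase of annotated exon. Rac2 made 93.98% of the sum of Rac1 and Rac2 in the B cells of the female and 94.5% in those of the male, 92.1% and 95.7% in basophils and 89.8% and 90.7% in neutrophils. In Mac III the share was 47.5% and 57.03%, in DC I 51.9% and 50.4%, and in DC III 1.43% and 16.1%. The Rac2 reads behind the last value came from 1 cell. Rac1 was higher in the female in 15 of 15 subtypes, with a median ratio of 1.94, and in 11 of 12 within the shared run, and 51.4% of its exon bases overlap Daglb on the opposite strand. The part of that overlap in the Rac1 values was not tested.

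**Figure D2:**
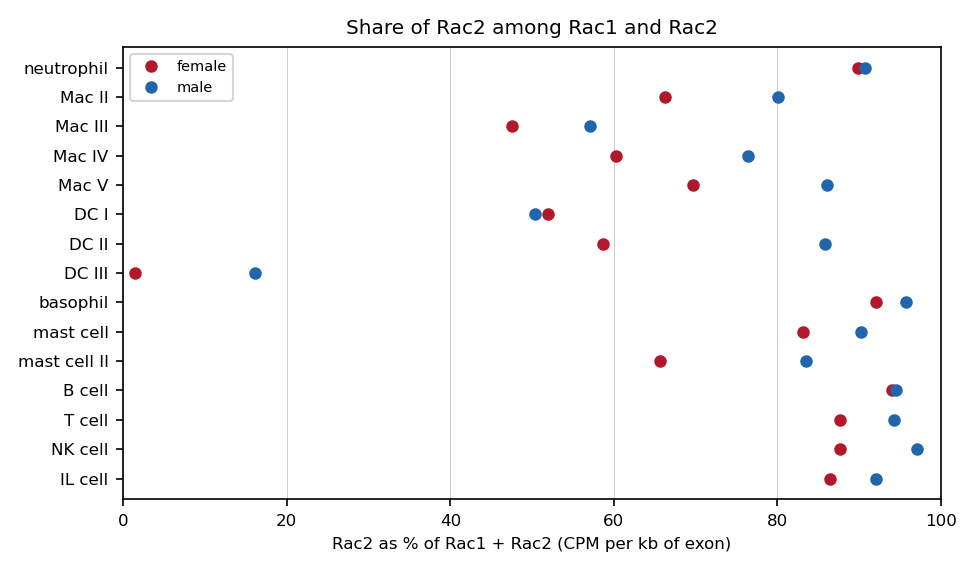
Rac2 as a percentage of Rac1 plus Rac2 (x axis, from CPM per kilobase of exon) in 15 labelled subtypes (y axis), 1 point for each animal. Both points of neutrophils, basophils and B cells lie at or above 89.8%, those of Mac III and DC I between 47.5% and 57.03%, and those of DC III at or below 16.1%.

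Set side by side per kilobase of exon, the 5 messages were not present in equal amounts. In neutrophils Cyba had 1216 CPM per kilobase in the female and 1290 in the male, Rac2 897 and 788, Ncf4 374.4 and 286.5, Ncf1 315.3 and 179.7, and Cybb 122.8 and 135.1. In Mac V the level of Cybb was 348.5 and 356.5 CPM per kilobase, that of Ncf4 341.7 and 310.2, and that of Ncf1 96.7 and 52.3. In Mac III Ncf4 was lowest of the 5, at 33.4 and 31.04 CPM per kilobase. Cybb was thus the lowest of the 5 in all neutrophils together, Ncf1 in Mac V and Ncf4 in Mac III, in both animals. The neutrophil values sum over cells with and without Cybb, which are set apart below. The lengths are those of all annotated exons of a gene (GENCODE M21), and the exons in use were not measured.

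A gene was taken as expressed in a subtype at 10 CPM or more in both animals. All 5 genes passed in 8 of 16 subtypes, namely neutrophil, Mac I (1 cell), Mac II, Mac III, Mac IV, Mac V, DC II and B cell. The same 8 were found at 2 and at 50 CPM, with the mean of per-cell CPM and within the shared run. The female alone gave 8 of 15, with NK cells in place of Mac I, and the male alone gave the same 8. DC I and basophils passed for 4 genes and lacked only Cybb.

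In single cells, all 5 genes were held together by 26.7% ± 1.17 of cells (SD, n = 2 animals), or 25.8% of 596 female and 27.5% of 582 male cells. The share was 57.8% ± 3.14 in Mac II, 50.4% ± 3.75 in Mac V, 36.04% ± 0.459 in DC II, 33.4% ± 3.70 in B cells, 32.5% ± 10.2 in Mac IV and 30.4% ± 3.19 in Mac III. In neutrophils it was 22.7% ± 11.5, with 14.5% of 55 female cells (exact Clopper-Pearson 95% interval 6.495 to 26.7) and 30.8% of 78 male cells (20.8 to 42.2). Macs II and V stood above the other labels in both animals, and neighbours among the rest overlapped. This order did not hold within the shared run, where the share was 55% ± 7.07 in Mac II, 48.002% ± 0.388 in Mac V and 47.9% ± 17.2 in DC II. The DC II share there rests on 5 female and 14 male cells. No cell of DC I, DC III, mast cell II, basophil or IL cell labels held all 5. With at least 1 drawn read the overall share was 31.1%, and with at least 5 it was 20.9%. Intervals cover counting error only.

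The gene that was missing differed between labels. Cybb was held by 99.7% of Mac III, 100% of Mac V and 100% of Mac II cells, 88.03% of Mac IV, 60.9% of B cells and 33.1% of neutrophils. Neutrophils instead held Cyba in 89.5%, Rac2 in 88.7% and Ncf1 in 74.4% of cells. A further 24.1% of neutrophils held all of the genes but Cybb. By the labels, neutrophils mostly had fewer genes detected per cell than Mac III cells. The part of this in the neutrophil shares was not tested. In Mac III the gene most often missing was Ncf4, held by 43.4% of cells (40.9% in the female, 45.7% in the male), and 52.96% of Mac III cells held exactly 4 of the 5. In basophils Ncf1 was held by 79.2% of cells and Ncf4 by 13.2%. Among DC I these shares lay the other way, with Ncf1 in 52.5% and Ncf4 in 82.5% of cells.

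**Figure D3:**
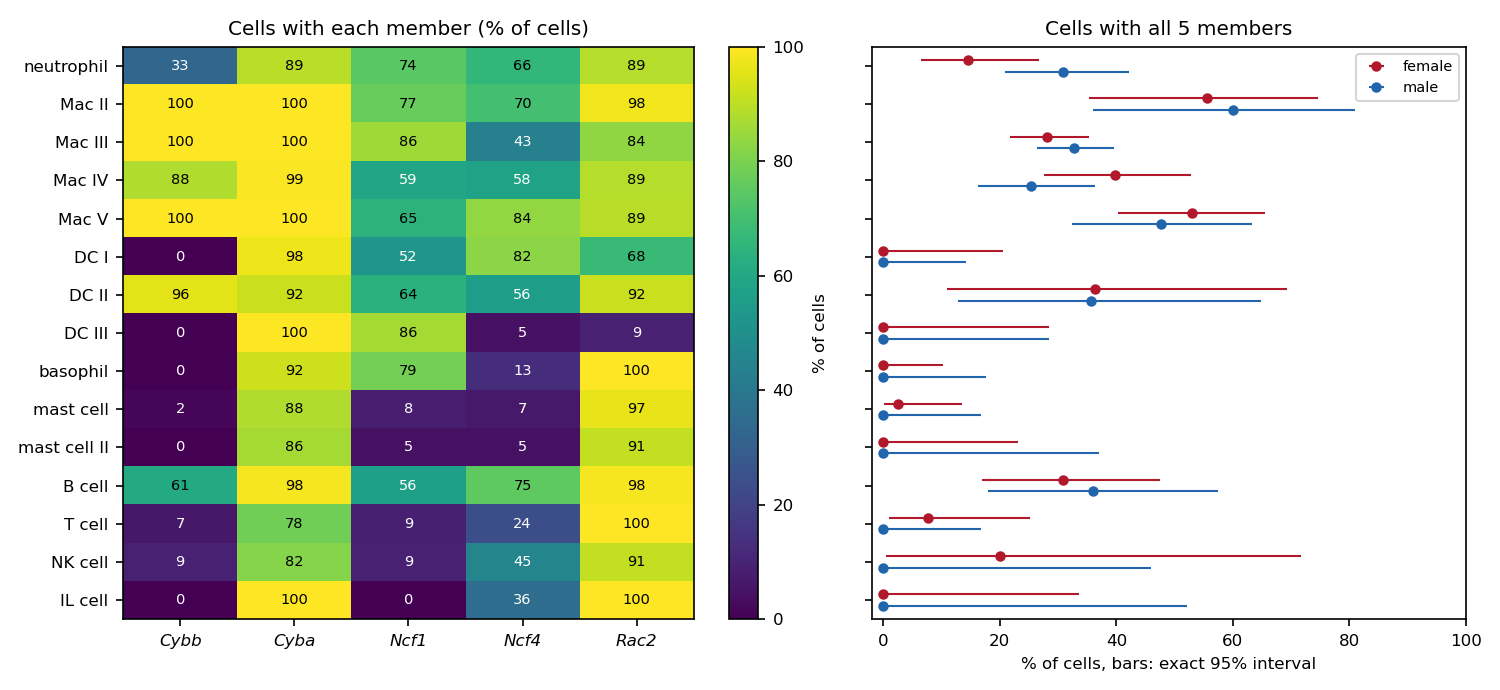
Left, percentage of cells of each labelled subtype that held each oxidase gene, both animals together, with the value printed in each field. Right, percentage of cells that held all 5 genes (x axis), 1 point per animal with the exact 95% interval; the highest points are those of Mac II and Mac V, and the points of DC I, DC III, basophils, mast cell II and IL cells lie at 0.

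Neutrophils fell into cells with and without Cybb, and the division followed Ngp in part. Ngp is a protein of the secondary granules that is made in immature neutrophils. Of the neutrophils, 9 in the female and 20 in the male had at least 100 CPM of Ngp. The others, 47 and 58, had no Ngp read in 46 and 55 cells, and 7 neutrophils in all lay between 20 and 1000 CPM. In the female, Cybb was 2065 CPM in the 9 Ngp-holding cells and 176.9 in the other 47. In the male it was 2019 CPM in 20 cells and 122.9 in 58. The difference was 11.7-fold in the female and 16.4-fold in the male. Both Ngp-holding libraries lay far above both others. Per cell, Cybb was held by 88.9% of the Ngp-holding cells of the female (exact 95% interval 51.8 to 99.7). In the male this share was 85% (62.1 to 96.8). Of the other cells, 15.2% held Cybb in the female (6.34 to 28.9) and 20.7% in the male (11.2 to 33.4). Over both animals, Cybb was held by 25 Ngp-holding cells and by 19 of the others.

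The other oxidase genes did not share this division to the same size. Cyba was 1.36-fold higher in Ngp-holding cells in the female and 1.76-fold in the male, and Ncf1 was 1.96-fold and 1.23-fold higher. Rac2 differed by 1.05-fold and 1.46-fold, and Ncf4 was lower in the female (0.754-fold) and higher in the male (1.56-fold). Cxcr2, a chemokine receptor of mature neutrophils, was at 0.419-fold and 0.315-fold in the Ngp-holding cells, and the alarmin S100a8 at 1.86-fold and 2.47-fold. Retnlg, another of the listed neutrophil markers, went the other way from Cxcr2, at 2.89-fold and 2.92-fold. Per cell, Cxcr2 was held by 66.7% and 85% of the Ngp-holding cells, against 82.6% and 84.5% of the others. The median depth was 867309 reads in the Ngp-holding cells and 545341 in the others. By animal it was 1294750 against 545341 in the female and 758882 against 545040 in the male. None of the Ngp-holding cells met the rule for cycling cells. With the line at 1000 CPM of Ngp the Cybb difference was 13.8-fold and 18.6-fold, and Cxcr2 was at 0.056-fold and 0.224-fold. With 1 animal of each sex no test was made. Cybb in all neutrophils was 918 CPM in the shared run and 492 in the other run of the female, and 790 in the shared run of the male.

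**Figure D4:**
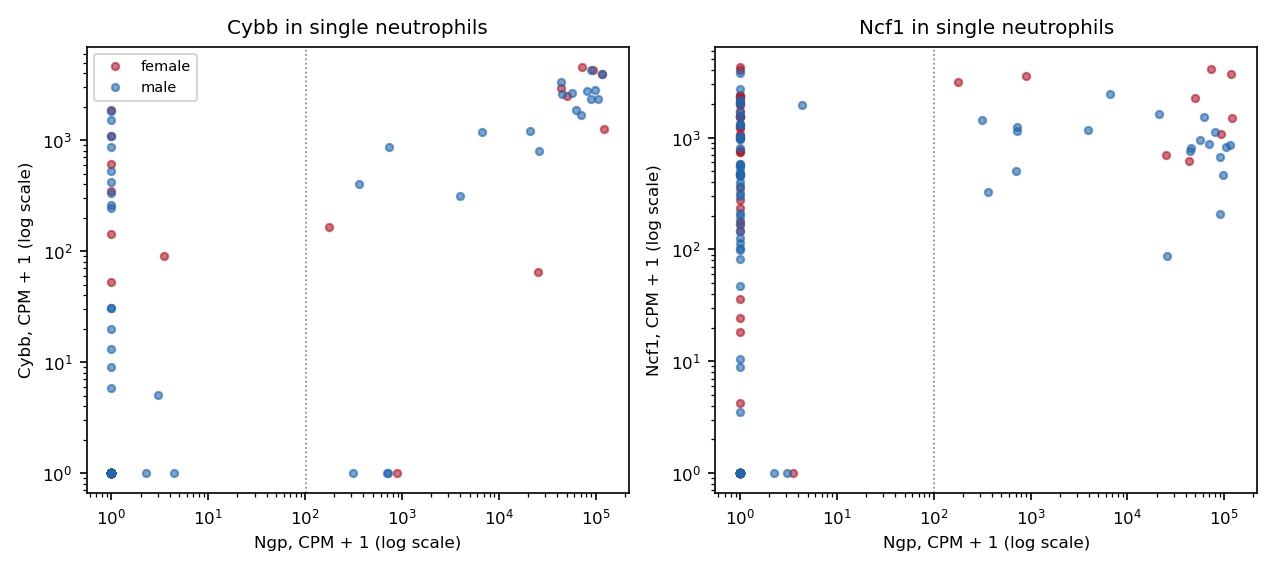
Cybb (left) and Ncf1 (right) against Ngp in single neutrophils of both animals, all axes in CPM + 1 on log scales, 1 point per cell coloured by animal; the dotted line marks 100 CPM of Ngp. Most cells right of the line lie high for Cybb, with a median of 1869 CPM, while the median left of it is 0; Ncf1 reaches the same heights on both sides.

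Cycling Mac III cells were set against the other Mac III cells in the same way. Rac2 was 522 CPM in cycling and 295.9 in other cells of the female, and 446 and 302.6 in the male, or 1.76-fold and 1.47-fold higher. Ncf1 went the other way, at 0.735-fold and 0.590-fold, as did Cyba, at 0.766-fold and 0.884-fold. Cybb was at 0.882-fold and 0.922-fold. Ncf4 was at 0.940-fold in the female and 0.304-fold in the male, so its size differed widely between the animals. Within Mac V, cells with Ly6c2 and cells with Ace were compared; Ncf4 was 1.25-fold and 1.53-fold higher in the former and Cyba 1.08-fold and 1.27-fold, and Cybb, Ncf1 and Rac2 differed in direction between the animals.

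Summed libraries were then tested across all genes with edgeR's quasi-likelihood test, where a gene was called at a Benjamini-Hochberg adjusted p under 0.05 over 15600 genes. Since the classes were probably named from these cells' own expression, a call describes how labelled classes differ. In the mean of neutrophils and Mac II to Mac V against the mean of B and T cells, 3 of the 5 genes were called, 2 higher and 1 lower, where 11% of all genes were called. Cyba was higher in the phagocytes by a log2 fold change of 1.30 ± 0.24 (SE; adjusted p = 0.00139), and Ncf1 by 3.56 ± 1.10 (adjusted p = 0.0420). Rac2 was lower, with a log2 fold change of -1.31 ± 0.34 (adjusted p = 0.0137). Cybb differed by 3.18 ± 1.03 (adjusted p = 0.0537) and Ncf4 by 1.00 ± 0.85 (adjusted p = 0.525), and neither was called. For Ncf1 the lymphocyte mean joins unlike labels, with 230.98 CPM (female) and 129.5 (male) in B cells against 9.29 and 1.00 in T cells. Ncf1 in B cells overlapped that in Mac II and Mac IV, so its log2 fold change does not describe B cells alone. The median log2 fold change was 1.30 over the 5 genes and 0.21 over all genes tested.

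These calls differed in how they held. Cyba was called in 14 of 14 fits that left out 1 library, Rac2 in 10 and Ncf1 in 1. The log2 fold change of Ncf1 was 3.21 to 4.82 in these fits, which also tested other numbers of genes (16546 to 16708 over all comparisons). With the animal as a replicate block, 4 of the 5 were called, Cybb among them. With limma voom only Rac2 was called, and Cyba had an adjusted p of 0.408. Cybb was called in 7 of 9 alternatives, with adjusted p values from 0.00196 to 0.791 (the last with limma voom), and in 0 of 14 fits that left out a library.

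Neutrophils and Mac III both held all 5 genes, in different proportions. Against Mac III, Rac2 was higher in neutrophils by a log2 fold change of 3.497 ± 0.66 (SE; edgeR adjusted p = 0.00639), and it was the 1 gene of the 5 called, where 1.41% of all genes were. Ncf4 differed by 3.84 ± 1.52 (adjusted p = 0.237) and Ncf1 by 2.34 ± 1.57 (adjusted p = 0.483). For Cybb the log2 difference was -0.33 ± 1.44 (adjusted p = 0.951). The animals did not overlap for any of these 4 genes. The Rac2 call was lost without either Mac III library (adjusted p up to 0.114 in fits with 1 library left out) and within the shared run (0.166).

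Other pairs of labels gave few calls. None of the 5 genes was called by edgeR between neutrophils and Mac V (0.404% of all genes called), between Mac V and Mac III (0.442%) or between Mac IV and Mac III (0.263%). At an unadjusted p under 0.05 the counts were 1, 2 and 0; DESeq2 called 1, 0 and 0, and limma voom 2, 3 and 2. Ncf4 was 690 and 627 CPM in Mac V against 67.5 and 62.7 in Mac III with no overlap, a log2 fold change of 3.39 ± 1.48 (edgeR adjusted p = 0.480). Rac2 in the same pair differed by 1.83 ± 0.62 (edgeR adjusted p = 0.30).

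Between the dendritic labels, 1 of the 5 genes was called, Cybb, where 0.244% of all genes were. DC II had 629 ± 67.6 CPM of Cybb (SD, n = 2) and DC I had 0 reads among 59703265 (edgeR adjusted p = 0.0144). Taking 3 reads over DC I as the floor puts the ratio at 12524. That figure covers the counting of reads only, not the spread among the 40 DC I cells or between animals. In DC II, 1 cell gave 34.2% of the Cybb reads of the female and 1 gave 42.1% of those of the male. Cyba differed by -0.06 ± 0.37 on the log2 scale and Ncf1 by 0.31 ± 1.498 (edgeR adjusted p = 1 for both). The call was lost without either DC I library and with limma voom (adjusted p = 0.949).

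Basophils and mast cells, which both carry the high-affinity IgE receptor, differed in Cyba. Basophils had 812 and 1079 CPM against 371.1 and 383.3 in mast cells, a log2 fold change of 1.54 ± 0.38 (edgeR adjusted p = 0.0429). It was the 1 gene of the 5 called, where 1.71% of all genes were, and the call was lost in all 4 fits that left out a library. It held in 3 of 8 other alternatives, with an adjusted p of 0.910 in limma voom. Ncf1 was 491 and 361.5 CPM in basophils against 19.5 and 3.30 in mast cells with no overlap, a log2 fold change of 5.42 ± 1.81 (edgeR adjusted p = 0.136). Rac2 differed by 0.77 ± 0.60 (edgeR adjusted p = 0.604).

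The rest of the pathway was read from lists of 54 genes, of which 51 were in the table. Among the further subunits and carriers, Arhgdib, an inhibitor that holds Rac proteins in the cytosol, was lower in phagocytes than in B and T cells, by a log2 fold change of -0.81 ± 0.18 (edgeR adjusted p = 0.00556). Arhgdib was also higher in neutrophils than in Mac III, by 2.28 ± 0.33 (edgeR adjusted p = 0.000643), as Rac2 was, and in Mac V than in Mac III, by 1.62 ± 0.32 (edgeR adjusted p = 0.0234). Of the 6 other NADPH oxidase genes in the table, Nox1, Nox4, Duox1, Duox2, Noxo1 and Noxa1, 3 had enough reads to be tested, and none was called in any of the 7 comparisons.

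Of 9 receptors that trigger the oxidase, 4 were higher in phagocytes than in B and T cells by edgeR and none lower, where 11% of all genes were called. They were C5ar1, the receptor of complement C5a, Itgb2, the common beta chain of leukocyte integrins, the Fc receptor Fcgr3 and the beta-glucan receptor Clec7a (log2 fold changes 3.86 ± 0.79, 2.94 ± 0.66, 3.71 ± 0.73 and 4.54 ± 0.87). Of 15 signalling genes 3 were higher, Pak1, Prkcd and Pik3cg, and 1 was lower, Prkcb. Of 8 genes of ion flux and NADPH supply 2 were higher, the NADPH-making enzymes G6pdx (2.46 ± 0.53) and Idh1 (3.02 ± 0.91). Of 6 transcription factors Spi1, which encodes PU.1, and Cebpa were higher (4.18 ± 0.78 and 3.73 ± 1.13), and Elf1 was lower (-1.41 ± 0.36). The medians of these 4 lists were 3.48, 1.00, 1.61 and 2.31 on the log2 scale, against 0.21 over all genes. The median was lower in the further subunits and carriers (0.63) and in the 3 other NADPH oxidase genes tested (0.80).

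Hvcn1, the proton channel that balances the charge moved by the oxidase, differed among labels that held all 5 genes. In Mac III it had 231.2 CPM in the female and 203.8 in the male, and in neutrophils 33 and 13.1. Mac V, the label highest in Cybb, had no Hvcn1 read in the female and 2 in the male. It was lower there than in Mac III (edgeR adjusted p = 0.00362) and than in neutrophils (edgeR adjusted p = 0.0163). DC II had 11.1 and 36.4 CPM of Hvcn1 and DC I no read (edgeR adjusted p = 0.0176), which is the pair in which Cybb was also called.

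Over the 30 summed libraries, which share 2 animals and differ in depth, the genes most like each member were found by Pearson's r of log2(CPM + 1) among 9282 genes. Cybb was most like Slc15a3 (r = 0.967), a lysosomal peptide transporter, then Clec4a3 (0.953) and Ear2 (0.899). Cyba was most like Tnfrsf1b (0.769), Tmsb4x (0.764) and Mpeg1 (0.763), and Ncf1 most like Pirb (0.896), Ptafr (0.832) and Mcl1 (0.811). Ncf4 was most like Ptprc (0.812), which encodes CD45, Gmip (0.784) and Sema4d (0.775), and Rac2 most like Pdlim2 (0.880), Gmfg (0.872) and Hcst (0.866). With Spearman's rho the lists changed, and Ncf1 ranked next to Pirb (0.825) its overlapping neighbour Gtf2ird2 (0.822).

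Among the members themselves, the pairs of Cybb, Cyba, Ncf1 and Ncf4 had r from 0.422 (Ncf1 with Ncf4, rho 0.327) to 0.656 (Cyba with Ncf1, rho 0.540) over these libraries. Rac2 had r of 0.114 with Cybb (rho -0.054), -0.308 with Cyba (rho -0.377) and -0.279 with Ncf1 (rho -0.064), and 0.407 with Ncf4 (rho 0.146). These values are descriptions across subtypes, which are not independent replicates. Between single cells of 1 label, the pairs of Cybb, Cyba, Ncf1 and Ncf4 had lower r. In Mac III, Mac IV, Mac V, neutrophils and B cells it ran from -0.037 (Cybb with Cyba in Mac III) to 0.314 (Cyba with Ncf4 in B cells). Those values are on thinned reads with both animals together.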

How the data were processed

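Raw read counts per gene and cell were used as deposited by the authors, 18072 genes in 1183 cells. Per the labels' protocols, plates of sorted cells were made into Tn5 libraries. The submitters' processing notes name STAR 2.5.2b, HTSeq 0.10 and the build GRCh38, a human build name for mouse samples; the annotation is not given in the sources used here. No molecular identifiers are named, so intervals cover counting error only. Symbols were matched to GENCODE M21, 18017 of 18072, for exon lengths and overlaps. Results for 1 listed pathway gene are not reported here.

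The 5 genes, the lists and the comparisons were chosen with earlier results of these data known. Counts were summed per animal and subtype where each animal had at least 5 cells, which left out Mac I and gave 30 libraries. They were fitted with edgeR 4.0.16 (R 4.3.3; TMM, filterByExpr, 15600 genes, 1 coefficient per subtype, Benjamini-Hochberg); the script was tested on simulated data. Whether separate cultures or litters lie behind the animals is not stated. CPM were computed from raw totals, so fitted fold changes differ from CPM ratios by the TMM factors. Detection used cells thinned to 100000 reads, which left out 5 shallower cells; no doublet caller was run. Cycling cells had at least 5 reads of at least 4 of 10 cycling genes. Genes named were the 5 members, the listed pathway genes and, per member, the 3 most like it (at least 20 CPM in both animals of a subtype; predicted, ribosomal and mitochondrial symbols left out). The same animals gave every subtype, so libraries are paired by animal: over 105 pairs of subtypes, deviations of the same animal correlated at -0.025 to 0.244, with a median of 0.080. Alternatives were DESeq2 1.42.0 or its size factors, limma voom 3.58.1, no filter, the replicate block by animal, only the compared subtypes, equal weight per cell, the shared run, NK cells added to the lymphocytes, other limits for the splits of cells (20 and 1000 CPM of Ngp; 20 and 200 of Ly6c2 and Ace; 2 and 6 cycling genes), and each library left out.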

Additional observations from a re-analysis of the deposited data

How the results depend on the processing

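For phagocytes against B and T cells 3 were called; DESeq2, no filter, equal weight per cell and NK cells added each gave 4, DESeq2 size factors and the shared run 3, limma voom 1, a fit of the compared subtypes alone 5, and fits with 1 library left out 1 to 3. For neutrophils against Mac III, DESeq2 gave 2, voom 3, the shared run 0, the compared subtypes alone 2, and libraries left out 0 to 1. For neutrophils against Mac V, DESeq2 gave 1 and voom 2, and libraries left out 0. For Mac V against Mac III and Mac IV against Mac III, voom gave 3 and 2 and the compared subtypes alone 2 and 2, and libraries left out 0. For DC II against DC I, voom gave 0 and libraries left out 0 to 1. For basophils against mast cells, DESeq2 size factors, no filter and the shared run gave 0, DESeq2 2, and libraries left out 0; voom gave 1, Rac2. The replicate block by animal (paired fit) gave 4, 1, 0, 0, 0, 1 and 1 in the order of the comparisons above. The cause of these differences was not tested. Of all genes tested, edgeR called 11%, 1.41%, 0.404%, 0.442%, 0.263%, 0.244% and 1.71% in that order, DESeq2 23.3%, 11.2%, 8.92%, 5.68%, 3.12%, 7.25% and 15.97%, and voom 26.9%, 15.3%, 5.40%, 16.5%, 14.9%, 2.22% and 9.23%.

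Some log2 differences that were not called changed sign. Cyba in neutrophils against Mac III (-0.07) was 0.083 with DESeq2 size factors, 0.083 with DESeq2, 0.0057 without a filter, 0.010 in the fit of the compared subtypes, and -0.047 to 0.098 with 1 library left out. Cyba against Mac V was 0.0017 with DESeq2 size factors and with DESeq2. Ncf1 in Mac V against Mac III (0.17) was -0.074 with the replicate block, -0.021 in the shared run and -0.41 to 0.52 with 1 library left out. Cyba in Mac IV against Mac III (-0.12) was 0.025 with DESeq2 size factors and with DESeq2, 0.034 with voom, and -0.31 to 0.077 with 1 library left out. Cyba in DC II against DC I was -0.13 to 0.0073 with 1 library left out. Cybb in basophils against mast cells (-3.62) was 0.74 in the shared run and -7.91 to 4.202 with 1 library left out; the highest value is that without the female mast cell library, which held all 64 mast cell reads. DESeq2 size factors moved the median of all genes in neutrophils against Mac III (-0.22 to -0.07), neutrophils against Mac V (to 0.17), Mac IV against Mac III (to 0.13) and basophils against mast cells (-0.15 to -0.27).

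The count of 8 subtypes with all 5 genes held under all 6 alternatives. The share of cells with all 5 was 31.1% with at least 1 read, 20.9% with at least 5, 25.2% in the shared run, and 25.8 to 27.5% for each animal alone. With 2 animals the tests lean on a spread shared by all subtypes. Of 30 differences between split cells under other split limits, 29 moved by less than the spread between animals, and Ncf1 in cycling Mac III cells was -0.34 (log2) with 2 cycling genes required. Of the 6 calls, 5 were lost in some fit with 1 library left out; Cyba in phagocytes was called in each.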
